A study of Mus musculus with 71 samples.

Results

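One hour after object recognition memory (ORM) training, the hippocampal translatome of mice fed a high-fat and sucrose (HFS) diet ad libitum still held a clear response of immediate early genes. Astrocyte genes, which rose in mice on normal chow (NC), were mostly not called. A difference in the change between these diets was not called for any gene, so the missing calls do not show a response lost on the HFS diet. Of 30141 genes that reached 10 counts over all mice, 371 (1.23%) differed between trained and home cage HFS ad lib mice, 223 of them higher (0.740%) and 148 lower (0.491%) after training. The members described here are the 12 mice of that comparison among the 71 of the series, 6 killed 1 h after training (ORM+1 h) and 6 taken from the home cage at zeitgeber time 3 (HC zt3), and they were chosen by diet and task as labelled. All were wild type male C57BL/6J mice housed 6 per cage, put on the HFS diet at 3 weeks of age and kept on it for 12 weeks with free access to food. Training lasted 10 min in an arena with a pair of identical objects, between zt2 and zt4, and the mice were killed 1 h later. By these times the trained mice were killed at zt3 or later, although the labels give zt3 for both groups. Training thus cannot be told apart from handling, the new arena or a later clock time. For comparison, NC ad lib mice had chow throughout, and HFS TRF mice ate the HFS diet only from zt11 to zt1 from week 8 on, with 6 trained and 6 home cage mice each.

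RNA was taken by pS6-TRAP, an immunoprecipitation of ribosomes that carry phosphorylated ribosomal protein S6. Phosphorylation of S6 rises in active cells, so this RNA is weighted toward them, and more active cells, more RNA per cell and more captured ribosomes cannot be told apart in such tissue samples. Neurons that fire strongly transcribe immediate early genes within minutes. Many of these genes encode transcription factors, others act directly at the synapse, and a further group shuts the kinase signal off again. Astrocytes, the glia that wrap synapses, clear glutamate and potassium and are joined to each other by gap junctions.

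Total counts per mouse were 51153793 to 56871555 at HC zt3 and 49188472 to 58659920 at ORM+1 h, and no library was shallow. The summed level of 10 neuron markers was 15197 to 16982 CPM (counts scaled by library size) in the home cage and 13929 to 16435 after training, and markers of dentate granule cells (238 to 416 CPM) and of CA pyramidal cells (631 to 901 CPM) were present in each of the 12 mice. The summed level of 10 choroid plexus markers, a tissue that lies against the hippocampus, spread from 119 to 6454 CPM in the home cage and from 149 to 9775 CPM after training, whereas that of 7 endothelial markers reached no more than 7.60 CPM. None of the choroid plexus markers was called, and with their level as a covariate the number of differentially expressed genes (DEG) was 519, among them all of the 371.

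Home cage mice 5 and 6 stood apart from home cage mice 1 to 4. The 10 astrocyte markers summed to 946, 912, 1032 and 816 CPM in home cage mice 1 to 4 and to 2485 and 2454 CPM in home cage mice 5 and 6, against 1445 to 3293 CPM in the trained mice. Egr4, an immediate early transcription factor, was at 35.2 to 50.9 CPM in all 6 home cage mice and at 112 CPM or more in all 6 trained mice. Markers of CA pyramidal cells were lower in the same mice, at 648 and 665 CPM against 831 to 901 CPM in home cage mice 1 to 4, while the trained mice were at 631 to 842 CPM. Results that rest on these mice are given below with and without them.

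Throughout, the values of a group are its lowest, median and highest CPM over 6 mice, a change is the log2 fold change of ORM+1 h minus HC zt3 ± its standard error, and adjusted p is that of the quasi-likelihood test of edgeR, adjusted by Benjamini-Hochberg over all 30141 genes. The 6 genes that rose with the smallest adjusted p were Egr4, Errfi1, Gadd45b, Junb, Fosb and Sertad1, and the trained mice lay above all home cage mice in each of them. The 250 bases before the transcription start are shown for the leading 3 of these, because these had the smallest adjusted p of all genes. They were read from RefSeq (table build GRCm38.p6) and placed in GRCm39 by an exact match, and capitals mark a match to 1 of the motifs searched.
Egr4, chr6:85490572-85490821, minus strand: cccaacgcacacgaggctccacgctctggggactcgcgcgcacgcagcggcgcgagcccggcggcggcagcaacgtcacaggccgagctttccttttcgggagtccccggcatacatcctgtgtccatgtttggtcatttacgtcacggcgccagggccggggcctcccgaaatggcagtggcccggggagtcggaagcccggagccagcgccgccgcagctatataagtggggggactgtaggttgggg
Errfi1, chr4:150939277-150939526, plus strand: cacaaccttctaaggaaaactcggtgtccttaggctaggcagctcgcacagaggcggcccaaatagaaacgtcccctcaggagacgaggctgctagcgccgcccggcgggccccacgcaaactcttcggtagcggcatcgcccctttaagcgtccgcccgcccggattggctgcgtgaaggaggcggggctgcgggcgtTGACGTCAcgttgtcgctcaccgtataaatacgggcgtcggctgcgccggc
Gadd45b, chr10:80765675-80765924, plus strand: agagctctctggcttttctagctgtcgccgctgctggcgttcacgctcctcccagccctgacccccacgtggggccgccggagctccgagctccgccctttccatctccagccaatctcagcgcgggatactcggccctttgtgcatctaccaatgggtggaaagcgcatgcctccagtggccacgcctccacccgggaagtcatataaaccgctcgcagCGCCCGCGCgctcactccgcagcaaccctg

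Both strands of each 250-base window were searched for the cAMP response element (TGACGTCA), the CArG box, the AP-1 site (TGANTCA) and the Egr site (GCGNGGGCG). Errfi1 held the cAMP response element, beginning 51 bases before the start, and Gadd45b held an Egr site beginning 30 bases before the start. Egr4 held none of the 4 motifs, and neither did the window of a second Errfi1 start. Promoters were found by symbol for 175 of the 223 genes that rose, for 105 of the 148 that fell and for 15931 of the genes tested. The cAMP response element was in 6.86% of the promoters of genes that rose, 1.90% of those of genes that fell and 2.44% of those of genes tested. For the Egr site the shares were 14.9%, 17.1% and 8.25%, for the AP-1 site 3.43%, 3.81% and 6.49%, and for the CArG box 1.71%, 2.86% and 1.51%. These shares describe the windows and were not tested.

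Immediate early transcription factors were the group with the most calls. Of 27 tested, 20 rose and none fell, with a median change of 1.07 beside 0.00 over all genes, and 17 of the 20 were called in each of the 12 fits that left out 1 HFS ad lib mouse. Egr4, a zinc finger factor of the early growth response family, was at 35.2, 40.2 and 50.9 CPM in the home cage and at 112, 141 and 164 CPM after training. The groups did not overlap, and the change of Egr4 was 1.77 ± 0.15 (3.404-fold, adjusted p = 6.15e-13). Egr2 had the largest change of the 223 genes that rose, from 1.25, 2.69 and 3.91 CPM to 19.4, 25.5 and 36.8 CPM (3.37 ± 0.39, adjusted p = 9.83e-09). Fosb, a partner of Jun proteins in the AP-1 factor, went from 18.1, 23.1 and 30.3 CPM to 107, 164 and 196 CPM (2.74 ± 0.29, adjusted p = 4.53e-10). Junb, another AP-1 subunit, was at 93.2, 130 and 169 CPM in the home cage and at 269, 362 and 465 CPM after training (1.45 ± 0.15, adjusted p = 2.46e-10). Atf3, a factor induced by stress and calcium, rose by 1.99 ± 0.24 (adjusted p = 2.96e-08) from a median of 3.94 to a median of 19.5 CPM. In all 5 of these genes the highest home cage mouse was below the lowest trained mouse.

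Further members of that list are named here after their values were seen. Egr1 rose from 148, 168 and 200 CPM to 369, 459 and 583 CPM (1.43 ± 0.18, adjusted p = 6.11e-08), and Egr3 by 0.86 ± 0.11 (adjusted p = 1.66e-07). Fos rose by 2.32 ± 0.33 (adjusted p = 1.75e-06), with 6.56, 9.94 and 29.4 CPM in the home cage and 48.9, 78.8 and 87.8 CPM after training. In home cage mice 5 and 6 Fos was at 25.1 and 29.4 CPM and in the other 4 at 10.5 CPM or less, and without both of them its change was 3.15. Among the orphan nuclear receptors of the Nr4a family, Nr4a1 rose by 1.37 ± 0.21, Nr4a2 by 1.32 ± 0.20 and Nr4a3 by 0.77 ± 0.15, with adjusted p of 1.71e-05, 5.39e-06 and 0.00220. Npas4, an activity-dependent factor of inhibitory synapse formation, was at 5.92, 8.48 and 13.4 CPM in the home cage and at 12.7, 27.4 and 31.1 CPM after training. Here the groups overlapped, since the lowest trained mouse was below the highest home cage mouse, and the change of Npas4 was 1.39 ± 0.30 (adjusted p = 0.00587).

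**Figure D1:**
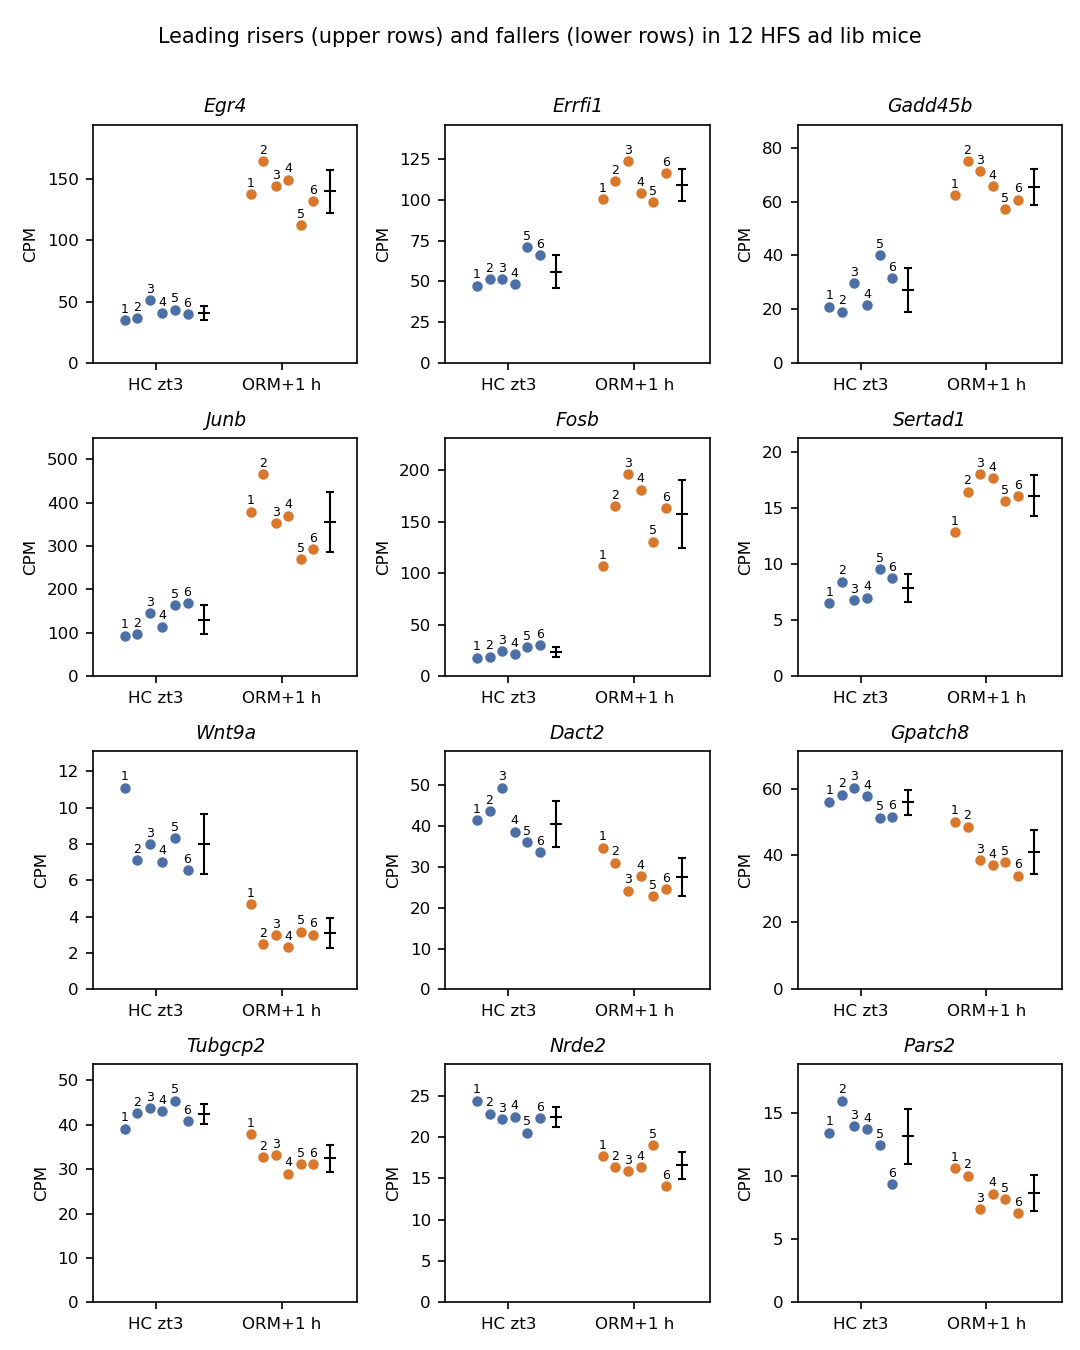
CPM of the 6 leading risers and the 6 leading fallers by adjusted p, in each of 12 HFS ad lib mice. The vertical axis of each panel is CPM from 0, points are mice numbered by replicate, and the bar beside them is the mean with SD (n = 6). All 6 trained mice lie above all home cage mice in the 6 risers, such as Egr4 at 112 CPM or more against 50.9 CPM or less. Trained mouse 1 is the highest trained mouse in 5 of the 6 fallers, a count not set against all genes.

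A second list, of activity-induced effectors, holds synaptic, nuclear and chaperone genes. Of its 27 genes, 14 rose and none fell, the median change was 0.52, and 8 of the 14 were called whichever mouse was left out. Arc, which drives removal of AMPA receptors from the synapse, was at 119, 149 and 303 CPM in the home cage and at 353, 480 and 621 CPM after training (1.38 ± 0.20, adjusted p = 2.48e-06). Home cage mice 5 and 6 had the highest levels of the untrained mice, at 303 and 262 CPM, and still lay below the lowest trained mouse. Homer1, a scaffold of metabotropic glutamate receptors, rose from 225, 257 and 337 CPM to 413, 503 and 714 CPM (1.04 ± 0.17, adjusted p = 6.47e-05). Gadd45b, which takes part in active DNA demethylation, went from 19.1, 25.6 and 40.0 CPM to 57.1, 64.0 and 75.0 CPM (1.27 ± 0.13, adjusted p = 1.90e-10). Nfil3, a repressor that also sits in the clock, rose from 11.9, 12.5 and 20.1 CPM to 30.2, 34.2 and 40.4 CPM (1.27 ± 0.17, adjusted p = 7.46e-07). The heat shock cochaperone Dnajb1 rose by 0.83 ± 0.12 (adjusted p = 4.55e-06), with 82.4 CPM in its highest home cage mouse and 111 CPM in its lowest trained mouse.

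The brakes on kinase signalling moved in the same direction. Of 17 feedback inhibitors of MAP kinases and receptor kinases, 8 rose, none fell, and the median change was 0.40. Errfi1, an inhibitor of the epidermal growth factor receptor, was at 47.5, 51.3 and 71.1 CPM in the home cage and at 98.8, 108 and 124 CPM after training (0.96 ± 0.09, adjusted p = 4.67e-11). Dusp5, a phosphatase of nuclear ERK, rose from 29.8, 36.5 and 55.8 CPM to 73.3, 79.1 and 90.7 CPM (0.99 ± 0.11, adjusted p = 5.02e-09), and Spry4, which blocks Ras activation, rose by 0.94 ± 0.14 (adjusted p = 5.14e-06). In these 3 genes the groups were apart. Dusp6, the cytoplasmic ERK phosphatase, rose by 0.54 ± 0.12 (adjusted p = 0.00569) and Spred1, a Ras inhibitor, by 0.51 ± 0.11 (adjusted p = 0.00505), and the call of Spred1 was lost without trained mouse 6 (adjusted p = 0.0553). Sertad1, a cell cycle regulator outside this list, rose from 6.50, 7.73 and 9.56 CPM to 12.9, 16.3 and 18.02 CPM (1.04 ± 0.11, adjusted p = 4.63e-10). Mapk3, a thyroid pathway member of the study that encodes the kinase ERK1, was at a median of 140 CPM in the home cage and 126 CPM after training and was not called (−0.17 ± 0.06, adjusted p = 0.176).

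**Figure D2:**
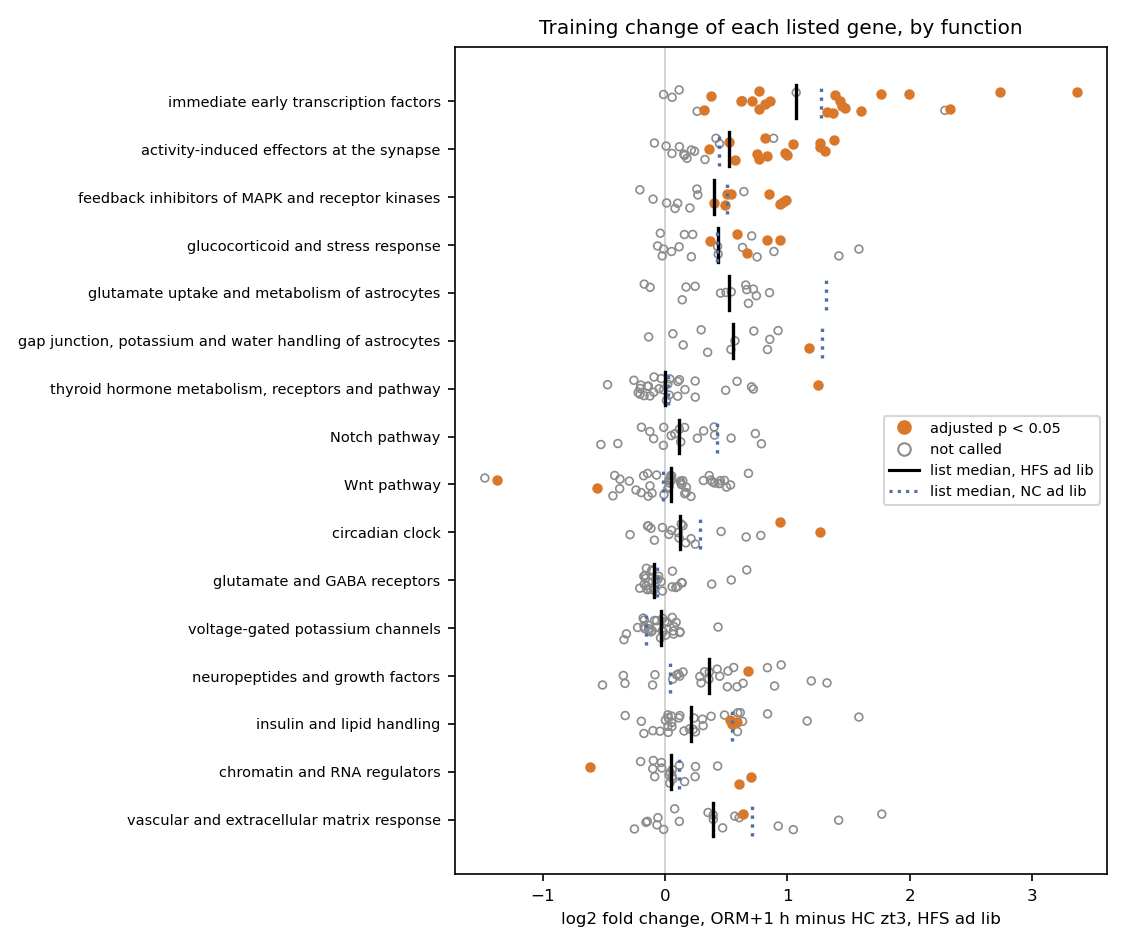
Log2 fold change (ORM+1 h minus HC zt3, horizontal axis) of every tested gene of 16 function lists in HFS ad lib mice, filled where the adjusted p was under 0.05. Solid bars are the median of a list in HFS ad lib mice and dotted bars the median of the same list in NC ad lib mice. The medians of the 2 astrocyte lists are 0.52 and 0.55 in HFS ad lib mice against 1.31 and 1.28 in NC ad lib mice.

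Stress and clock genes gave a shorter list of calls. Of 22 glucocorticoid and stress response genes 5 rose and none fell, with a median change of 0.43. Per1, a period gene of the clock that glucocorticoids and neuronal activity both induce, was at 59.8, 66.6 and 82.8 CPM in the home cage and at 125, 133 and 157 CPM after training (0.94 ± 0.12, adjusted p = 2.14e-07). Tsc22d3, a target of the glucocorticoid receptor, rose by 0.67 ± 0.12 (adjusted p = 0.000467), and Atf4, the factor of the integrated stress response, by 0.37 ± 0.08 (adjusted p = 0.00314), with overlapping groups in both. The heat shock gene Hspa1b rose by 0.59 ± 0.15 (adjusted p = 0.0298), but it has a near-identical neighbour with which it can share reads, and it was called in 5 of the 12 fits that left out a mouse. The receptor itself, Nr3c1, named after its values were seen, fell from 49.8, 59.0 and 74.2 CPM to 36.0, 46.8 and 55.1 CPM (−0.36 ± 0.09, adjusted p = 0.0208), and its change was −0.02 in NC ad lib mice against 0.01 in the HFS TRF group. That call held in 7 of the 12 fits that left out a mouse. The difference in the change of Nr3c1 between diets was not called, as for every other gene. Of 20 clock genes tested, Per1 and Nfil3 rose, the other 18 were not called, and the median change was 0.12.

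Insulin and lipid genes were called in 3 of 34 cases, all of them higher, with a median change of 0.21. Irs2, an adaptor of the insulin receptor, was at 120, 133 and 145 CPM in the home cage and at 178, 184 and 210 CPM after training (0.53 ± 0.08, adjusted p = 1.92e-05). Cyp51, an enzyme of cholesterol synthesis, rose from 27.3, 31.0 and 34.8 CPM to 41.8, 46.0 and 55.1 CPM (0.59 ± 0.10, adjusted p = 0.000136). The groups were apart in both, and each was called in all 12 fits that left out a mouse. In NC ad lib mice, where 5.73% of all genes were called, 18 genes of this list rose. None of the list was called for a difference in the change between these diets.

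Metabolic genes outside the lists, named after their values were seen, included Gpt2, a mitochondrial alanine aminotransferase, which rose by 0.71 ± 0.09 (adjusted p = 7.45e-08) from a median of 68.6 to a median of 113 CPM. Slc16a1, a carrier of lactate and ketone bodies, rose by 0.62 ± 0.11 (adjusted p = 0.000298), and Slc25a25, a mitochondrial ATP-Mg carrier, by 0.39 ± 0.06 (adjusted p = 2.48e-06). The groups were apart in each of these 3. Mfsd2a, which carries omega-3 lipids across the blood-brain barrier, rose by 0.92 ± 0.19 (adjusted p = 0.00282). Other genes named in the same way were Mcl1 and Bcl2, which block apoptosis and rose by 0.49 ± 0.07 and 0.75 ± 0.15 (adjusted p = 4.95e-07 and 0.00282), and Bbc3, which promotes it and fell by 0.73 on the log2 scale (SE 0.15, adjusted p = 0.00279).

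Chromatin regulators were called in 3 of 20 cases. The histone demethylases Kdm6b and Kdm7a rose by 0.70 ± 0.11 and 0.61 ± 0.13 (adjusted p = 8.80e-06 and 0.00505). Tet1, which oxidizes methylated cytosine, was at 2.99, 3.79 and 4.61 CPM in the home cage and at 2.18, 2.41 and 2.84 CPM after training (−0.61 ± 0.16, adjusted p = 0.0335). All trained mice were below all home cage mice, but Tet1 was called in 4 of the 12 fits that left out a mouse. Among 28 neuropeptides and growth factors, Vegfa, the vascular growth factor, was the 1 call, from 18.6, 21.3 and 24.9 CPM to 29.8, 35.2 and 39.1 CPM (0.68 ± 0.15, adjusted p = 0.00467). Of the 28, 23 had a positive change, with a median of 0.36, against medians of 0.04 in NC ad lib mice and 0.21 in HFS TRF mice. A shift of the list as a whole was not tested. The peptide Sst was at 84.0, 90.2 and 114 CPM in the home cage and at 99.2, 139 and 158 CPM after training and was just outside the threshold (0.51 ± 0.14, adjusted p = 0.0537). Of 19 vascular and extracellular matrix genes, Hapln1, a link protein of perineuronal nets, rose by 0.64 ± 0.17 (adjusted p = 0.0321, called in 5 of the 12 fits that left out a mouse), and the matricellular gene Sparcl1 was not called (0.39 ± 0.15, adjusted p = 0.227). None of 29 glutamate and GABA receptor genes and none of 31 voltage-gated potassium channel genes was called, with median changes of −0.09 and −0.04. Since 1.23% of all genes were called, none in lists of this size is no result about receptors or channels. Nearest to the threshold among the channels were Kcna4 (−0.34 ± 0.10, adjusted p = 0.0735) and Kcnf1 (0.43 ± 0.15, adjusted p = 0.174).

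The genes that fell changed less than those that rose. The median change of the 148 was −0.35 and 5 of them fell at least 2-fold, against a median of 0.52 and 31 genes for the 223 that rose. Wnt9a, a secreted Wnt ligand, was at 6.55, 7.55 and 11.1 CPM in the home cage and at 2.31, 2.99 and 4.67 CPM after training (−1.37 ± 0.23, adjusted p = 0.000131). Dact2, an inhibitor of Wnt and Nodal signalling, was at 33.6, 40.1 and 49.5 CPM and at 22.9, 26.2 and 34.8 CPM (−0.56 ± 0.10, adjusted p = 0.000142). These were the 2 calls among 45 genes of the Wnt pathway, whose median change was 0.05. The next of the fallers were Gpatch8, an RNA-binding G-patch protein (−0.45 ± 0.08, adjusted p = 0.000259), and Tubgcp2, a subunit of the gamma-tubulin ring (−0.39 ± 0.07, adjusted p = 0.000667). Nrde2, a nuclear factor that limits RNA decay, and Pars2, the mitochondrial prolyl-tRNA synthetase, completed the 6 with changes of −0.44 ± 0.08 and −0.60 ± 0.12 (adjusted p = 0.00110 and 0.00157). Groups were apart in Wnt9a, Gpatch8, Tubgcp2 and Nrde2 and overlapped in Dact2 and Pars2.

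The number of genes called lower moved with several mice. Trained mouse 1 was the highest trained mouse in 5 of the 6 leading fallers and in 100 of the 148 genes that fell, counts not set against all genes. Without it 284 genes were called lower, and without trained mouse 2 there were 198. Without trained mouse 3, 4, 5 or 6 the number was 75, 51, 60 and 66. Among home cage mice it was 83, 62, 71 and 85 without mouse 1, 2, 3 or 4, and 192 and 186 without mouse 5 or 6. In the 512 genes that fell between home cage and trained NC ad lib mice, in the model that also holds the HFS ad lib mice, the mean log2 CPM relative to the home cage mean was −0.05 in trained mouse 1 and −0.16 to −0.34 in the other 5 trained mice.

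Proteins of RNA processing and zinc finger factors were counted by symbol, a grouping made after the calls were seen. Of 76 coding genes with symbols beginning Hnrnp, Srsf or Rbm, 4 fell and 2 rose (5.26% and 2.63% of them). Hnrnpdl, a regulator of splicing, was at 167, 179 and 192 CPM in the home cage and at 103, 112 and 154 CPM after training (−0.54 ± 0.12, adjusted p = 0.00667). Hnrnpr, which binds nascent RNA, fell from 90.7, 99.5 and 109 CPM to 64.0, 73.7 and 87.7 CPM (−0.41 ± 0.09, adjusted p = 0.00775). The splicing factors Srsf5 and Rbmx changed by −0.63 ± 0.15 and −0.47 ± 0.11 (adjusted p = 0.0104 and 0.0111). Of 450 coding genes with symbols beginning Zfp, Zbtb or Zscan, 11 fell and 4 rose (2.44% and 0.889%), with a median change of −0.02. Over all 30141 genes tested, 0.491% fell and 0.740% rose. Coding genes are the closer base, with 356 calls in both directions together among 17601 coding genes. Their shares by direction are not given here, and the shares of these symbol groups were not tested against them. Zfp39 had the smallest adjusted p of the zinc finger genes that fell, with all trained mice (5.41, 6.67 and 8.98 CPM) below all home cage mice (9.22, 9.83 and 11.02 CPM). Further fallers named after their values were seen were Nos1, the neuronal nitric oxide synthase (−0.42 ± 0.10, adjusted p = 0.0152), and Crmp1 and Wasf1, regulators of axonal microtubules and of actin (−0.33 ± 0.07 and −0.30 ± 0.07, adjusted p = 0.00611 and 0.0133).

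Astrocyte genes had raised medians and almost no calls. None of 14 genes of glutamate uptake and metabolism in astrocytes was called in HFS ad lib mice, although 12 had a positive change and the median was 0.52. On this diet 1.23% of all genes were called, so none among 14 is no result by itself. In NC ad lib mice, where 1727 genes (5.73%) were called in all, 11 of the 14 rose and 1 fell, with a median of 1.31. In HFS TRF mice, with 864 calls (2.87%), 10 rose and the median was 1.02. Glul, the glutamine synthetase of astrocytes, was at 397, 443 and 1298 CPM in the home cage and at 855, 1012 and 1484 CPM after training (0.68 ± 0.22, adjusted p = 0.126). Slc1a3, a glial glutamate transporter, was at 92.2, 109 and 397 CPM and at 191, 318 and 587 CPM (0.75 ± 0.31, adjusted p = 0.253), and Slc1a2, the other one, had a change of 0.50 ± 0.21 (adjusted p = 0.258). For the cystine transporter Slc7a11 the adjusted p was 0.0788 (0.85 ± 0.26). The mitochondrial glutamate carrier Slc25a18 changed by 0.66 ± 0.29 (adjusted p = 0.290), the NMDA receptor subunit Grin2c by 0.54 ± 0.27 (adjusted p = 0.362) and the metabotropic receptor Grm3 by 0.67 ± 0.25 (adjusted p = 0.209). Atp1b2, a beta subunit of the sodium pump, had a change of 0.25 ± 0.17 (adjusted p = 0.565).

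The same held for the channels and junctions of astrocytes. Of 12 genes, Gjb6, which encodes connexin 30, was the 1 call (1.17 ± 0.29, adjusted p = 0.0194), against 10 genes that rose in NC ad lib mice and 8 that did so in HFS TRF mice. Gjb6 was at 5.74, 7.41 and 25.7 CPM in the home cage and at 19.2, 24.3 and 51.7 CPM after training, and it was called in 7 of the 12 fits that left out a mouse. Mlc1, a membrane protein of astrocyte end-feet, had a change of 0.84 ± 0.28 (adjusted p = 0.135). Connexin 43 (Gja1) and the water channel Aqp4, named after their values were seen, had changes of 0.86 ± 0.32 and 0.73 ± 0.28 (adjusted p = 0.209 and 0.234).

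Most of the weight on those values lay with home cage mice 5 and 6. In the 4 other home cage mice Gja1 was at 22.9, 19.9, 20.9 and 19.5 CPM, in mice 5 and 6 it was at 91.8 and 83.8 CPM, and in the 6 trained mice it was at 53.5, 74.7 and 122 CPM. All 6 trained mice were thus above home cage mice 1 to 4, and home cage mouse 5 was above 5 of the 6 trained mice. Over the 14 glutamate genes, the mean log2 CPM relative to the home cage mean was 0.75 in both mice, −0.50 to −0.28 in home cage mice 1 to 4, and 0.23 to 1.06 in the trained mice. Over the 12 genes of channels and junctions, it was 0.76 and 0.77 in mice 5 and 6 and 0.42 to 1.01 in the trained mice. Without home cage mouse 5, 5 of the 14 and 7 of the 12 genes were called. Without home cage mouse 6 it was 3 and 2, and without both it was 10 and 9, with medians of 1.27 and 1.24. With the replicate number within each task as a block, a fit added after seeing the data, 7 of the 14 and 7 of the 12 genes were called higher. That block joins same-numbered mice across diets, a pairing that was not checked. Home cage mice 5 and 6 also had the highest astrocyte markers under TRF, so the block can absorb their level. Its calls are thus no support for a change. Home cage mice 5 and 6 were singled out for their astrocyte level, which fixes the direction of a fit without them, so the fit without both is a description of how much they weigh and no support for a change.

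**Figure D3:**
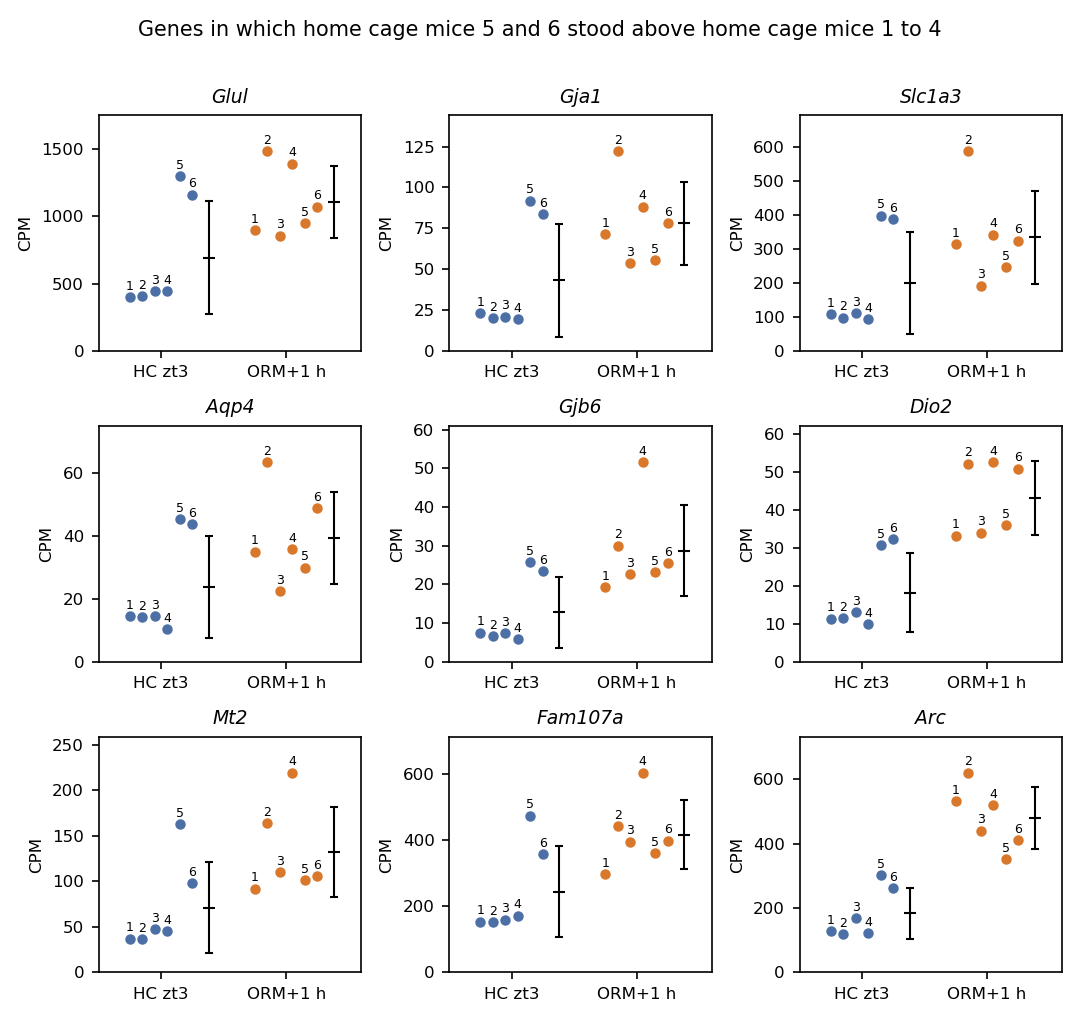
CPM of 9 genes in each of 12 HFS ad lib mice, chosen to show home cage mice 5 and 6. The vertical axis of each panel is CPM from 0, points are mice numbered by replicate, and the bar beside them is the mean with SD (n = 6). Home cage mice 5 and 6 lie within the range of the trained mice in Gja1 (91.8 and 83.8 CPM against 53.5 to 122 CPM) and below all trained mice in Arc (303 and 262 CPM against 353 CPM or more) and Dio2.

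The raised level of these 2 mice reached beyond astrocyte markers. Over the 1215 genes that rose after training in NC ad lib mice, called in that same model, the same measure was 0.43 and 0.42 in home cage mice 5 and 6. It was −0.25 to −0.13 in home cage mice 1 to 4 and 0.25 to 0.60 in the trained mice. In the 27 immediate early transcription factors it was 0.35 and 0.27 in the 2 mice, −0.24 to 0.03 in home cage mice 1 to 4 and 0.99 to 1.33 in the trained mice, so the groups were apart there. Mouse 5 was the highest home cage mouse in 97 and mouse 6 in 66 of the 223 genes that rose, against 24, 6, 16 and 14 for mice 1 to 4. The same count over all genes is not given here, so this is not a trait of the risers alone. Their neuron markers, at 15241 and 15416 CPM, were within the range of the other home cage mice, and their choroid plexus markers were at 119 and 2732 CPM. On the other diets, the astrocyte markers of home cage mice were at 992 to 1279 CPM (NC ad lib) and at 766 to 1734 CPM (HFS TRF), where mice 5 and 6 were again the highest, at 1734 and 1633 CPM. The part of these levels in the counts of DEGs was not tested beyond leaving the mice out.

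**Figure D4:**
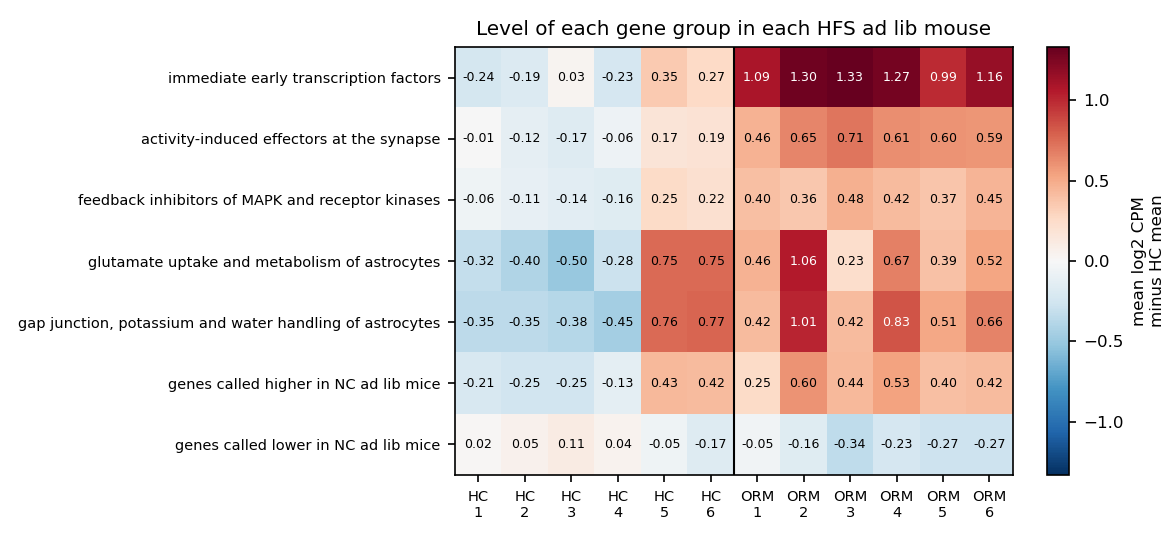
Mean log2 CPM over 7 groups of genes in each of 12 HFS ad lib mice, minus the mean over the 6 home cage mice (colour and printed value). Home cage mice 5 and 6 are at 0.75 to 0.77 in the 2 astrocyte groups, within the range of the trained mice, and at 0.35 and 0.27 in the immediate early transcription factors, where the trained mice are at 0.99 or more.

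Leaving out single home cage mice moved the count in both directions. Without home cage mouse 5 there were 621 DEGs, 355 of them among the 371, and without mouse 6 there were 483, of which 332 were. Without mouse 1, 2, 3 or 4 the number was 230, 191, 218 and 224. Mouse 2 lay closest to its group, with a root mean square deviation of 0.177 in log2 CPM over 13199 genes, and its removal cost the most calls, 181 of the 371. Among those lost without it, Mxi1, a partner of Max that opposes Myc, went from an adjusted p of 0.00837 to 0.0559. The change of Mxi1 was 0.33 ± 0.08. The splicing factor Prpf38b (0.37 ± 0.09, adjusted p = 0.0106) and the zinc finger gene Zfp28 (−0.53 ± 0.12, adjusted p = 0.0104) were lost without mouse 2 as well. Removal of home cage mouse 5 added 266 genes, led by the metallothioneins Mt1 and Mt2, which bind zinc, and by the homeobox gene Lhx2. Mt2 was at 36.9, 46.5 and 162 CPM in the home cage and at 91.9, 108 and 219 CPM after training, and its adjusted p went from 0.0584 to 0.000452. For Mt1 it went from 0.0655 to 0.000431 and for Lhx2 from 0.101 to 0.00118.

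A core of 135 genes, 101 that rose and 34 that fell, was called in the same direction in all 12 fits that left out 1 mouse. In 105 of them every trained mouse lay beyond every home cage mouse. Over all genes such separation was found upward in 247 (0.819%) and downward in 156 (0.518%), and 177 of the 371 DEGs showed it. The core held 17 immediate early transcription factors, 8 activity-induced effectors, 5 feedback inhibitors of kinases and none of the 26 astrocyte genes. With 135 of all 30141 genes in the core, none among 26 is no result about astrocyte genes.

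**Figure D5:**
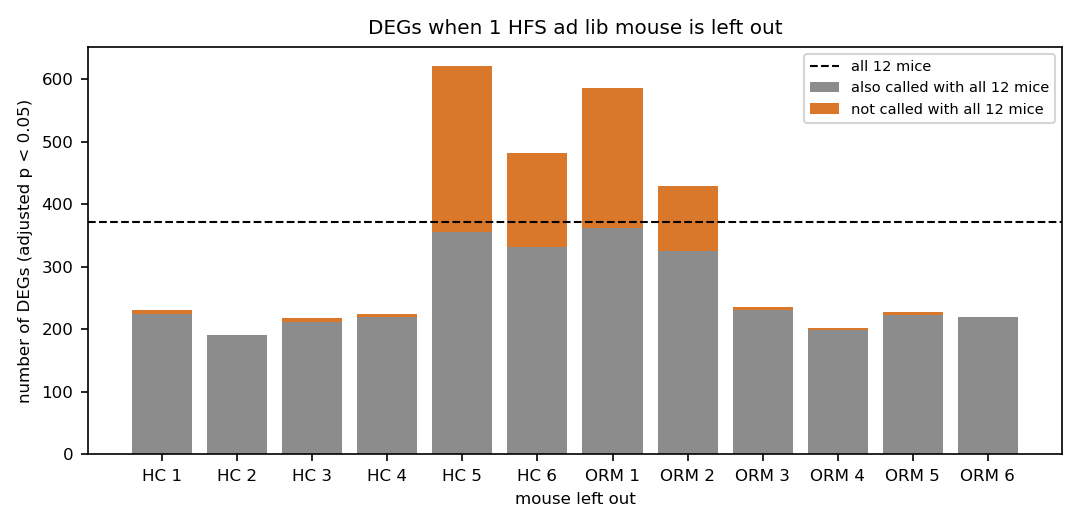
Number of DEGs (vertical axis, adjusted p under 0.05) when 1 of the 12 HFS ad lib mice is left out (horizontal axis). Grey bars are genes also called with all 12 mice, orange bars are genes not called with all 12 mice, and the dashed line is the 371 DEGs of all 12 mice. The count runs from 191 without home cage mouse 2 to 621 without home cage mouse 5.

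Thyroid hormone genes, which the study follows on this diet, were called once among 30, and since the study drew part of this list from these samples the count is no independent evidence. Dio2, the deiodinase that makes active T3 and is found in astrocytes, was at 9.94, 12.2 and 32.2 CPM in the home cage and at 33.1, 43.4 and 52.6 CPM after training (1.25 ± 0.24, adjusted p = 0.000919). Home cage mice 5 and 6 were at 30.7 and 32.2 CPM, just below the lowest trained mouse, and without both the change of Dio2 was 1.91. In NC ad lib mice it was 1.77 and in HFS TRF mice 1.49. Dio3, the deiodinase that inactivates T3, was low in both groups, at 1.63, 1.95 and 6.15 CPM and at 1.19, 1.95 and 2.83 CPM (−0.47 ± 0.37, adjusted p = 0.668). The receptors Thra and Thrb had changes of −0.03 ± 0.08 and 0.10 ± 0.09 (adjusted p = 0.962 and 0.687). Counts per gene do not separate the Thra isoforms or the exon use that the study examined. The transporter Slco1c1, found in brain vessels and choroid plexus as well, had a change of 0.71 ± 0.61 (adjusted p = 0.695). Slco1c1 ran from 3.74 to 43.0 CPM among home cage mice alone. The coactivator Ncoa1 had the second smallest adjusted p of the list (−0.20 ± 0.06, adjusted p = 0.0918), and Med12, Med16, Pik3ca and the phospholipase Plcd4 were not called (adjusted p = 0.785, 0.257, 0.366 and 0.268). None of 19 Notch pathway genes was called, beside 1.23% of all genes on this diet. Notch1 was at 0.12 ± 0.19 (adjusted p = 0.916), Lfng at 0.79 ± 0.30 (adjusted p = 0.212) and Dll1 at −0.39 ± 0.15 (adjusted p = 0.228). In NC ad lib mice, where 5.73% of all genes were called, 7 of the 19 rose and 2 fell. No Notch gene was called for a difference in the change between these diets.

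Most DEGs were shared with the other diets, whose mice are separate. Of the 371, 238 were DEGs in NC ad lib mice as well, 64.2% of the HFS ad lib list and 13.8% of the NC ad lib list. With HFS TRF mice 227 were shared, 61.2% and 26.3% of the lists, and 196 were DEGs on all 3 diets. All 196 changed in the same direction on each diet, with a median size of 0.54 in HFS ad lib mice and 0.59 in each of the other diets. Being called on all 3 diets selects for this, so it does not show a response of equal size. In the direction of the HFS ad lib change, the 1727 NC ad lib calls had medians of 0.28 (HFS ad lib) and 0.51 (NC ad lib). For the 864 HFS TRF calls the medians were 0.35 (HFS ad lib) and 0.50 (HFS TRF). Those lists in turn favour the diet that made the calls. Taken in its own direction, the HFS ad lib change of a gene cannot be negative, while that of the other diet can. The medians of each pair are thus not like measures. A difference in the change between diets was not called for any gene. For HFS ad lib minus NC ad lib the smallest adjusted p was 0.711, with 1884 genes at an unadjusted p under 0.05, and for HFS TRF minus HFS ad lib it was 0.750, with 1685 genes. The DESeq2 Wald test called none either, while limma-voom called 1 and 6 genes. Gja1 is an example: the difference of −1.06 ± 0.45 between its changes on the HFS and the NC diet ad lib had an adjusted p of 0.717. So the calls made in NC ad lib mice and missed in HFS ad lib mice do not show that the change differed between the diets.

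A set of 54 DEGs had an adjusted p of at least 0.2 on both other diets, 22 that rose and 32 that fell, although 49 of them had the same direction of change in NC ad lib mice and 48 had it under TRF. The leading risers among them were Hax1, a mitochondrial survival protein (0.31 ± 0.07, adjusted p = 0.0111), the antisense transcript Dlx1as (0.46 ± 0.11, adjusted p = 0.0153) and the serotonin receptor Htr3a of interneurons (0.69 ± 0.17, adjusted p = 0.0153). The 6 GABA interneuron markers, none of them called, all had a positive change. They summed to 688, 732 and 804 CPM in the home cage and to 744, 801 and 956 CPM after training, against medians of 841 and 780 CPM in NC ad lib mice and 758 and 765 CPM under TRF, and their part in these calls was not tested. Dlx1as was at 28.1, 29.4 and 33.1 CPM in the home cage and at 37.8, 41.2 and 45.0 CPM after training, but whether strand was used in counting is not given in the sources used here, so reads of Dlx1 may be among them. Sh3bp4, a regulator of receptor endocytosis, Zbtb8b and Zfp507 led the fallers with changes of −0.39 ± 0.08, −0.59 ± 0.12 and −0.31 ± 0.07 (adjusted p = 0.00178, 0.00282 and 0.00631). In NC ad lib mice Sh3bp4, Zbtb8b and Zfp507 had changes of −0.17, −0.25 and −0.15.

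Cytosolic ribosomal proteins gave a small shift that nearly all of them shared, a group looked at after the calls were seen. Of 83 genes 82 had a positive change, with a median of 0.19 in HFS ad lib mice, 0.10 in NC ad lib mice and 0.02 in HFS TRF mice. Rpl34, Rplp2 and Rpl21 were the 3 called, with changes of 0.30 ± 0.08, 0.29 ± 0.07 and 0.34 ± 0.09 (adjusted p = 0.0253, 0.0258 and 0.0475). None of the 3 was called in all 12 fits that left out a mouse, the number called ran from 0 to 17 among those fits, and 22 were called without home cage mice 5 and 6. Rpl34 was at 51.4, 59.7 and 65.0 CPM in the home cage and at 65.4, 71.7 and 83.1 CPM after training, so the groups barely separated. Ribosomal protein genes have many processed copies in the genome with which reads can be shared. Of 96 respiratory chain subunits, 82 had a positive change and 1 was called, Uqcrh of complex III (0.27 ± 0.07, adjusted p = 0.0432).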

How the data were processed

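RNA bound to ribosomes with phosphorylated S6 was purified from the hippocampus of each mouse, and stranded libraries were sequenced. Per the labels and methods, the authors trimmed reads with Trim Galore 0.6.7 and cutadapt 3.4, aligned them to GRCm39 with HISAT2 2.2.0, assigned uniquely mapped reads to genes by featureCounts (Subread 2.0.3), and deposited raw counts, which were used unchanged. The strand setting of the counting is not given in the sources used here. Unique counting can undercount genes with near-identical copies.

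Genes with at least 10 counts in total (30141) were fitted with edgeR 4.0.16 (R 4.3.3; TMM normalization, quasi-likelihood test) in 1 model of 12 groups and 71 mice, with Benjamini-Hochberg adjustment and a threshold of 0.05. The study's methods name DESeq2 (here 1.42.0), which was run as an alternative, as was limma-voom (limma 3.58.1). Each mouse is 1 sample, and p rests on the spread between mice within groups, estimated over all 71 mice. It is thus not set by the 12 mice compared alone, whose own fit gave 180 DEGs. The fits that left out 1 mouse kept all mice of the other groups. CPM used TMM library sizes. Genes named are the 6 with the smallest adjusted p in each direction, up to 5 called genes of each list (the 2 with the smallest adjusted p where fewer than 2 were called), genes that the study discusses, the 3 leading genes each way with an adjusted p of at least 0.2 on both other diets, and the 3 lost or added most firmly on removal of 1 home cage mouse. A few genes that this rule names are not reported here. Others are said to be named after their values were seen. The members and gene lists were chosen with earlier results of these data known. Same-numbered trained and home cage mice did not deviate together (correlations of −0.65 to 0.26 over 6 numbers), so the numbers were not taken to pair mice. Pairing across diets was not checked. No column was left out.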

Additional observations from a re-analysis of the deposited data

Results flagged for a closer look

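In 242 groups of 6 values examined, of which chance flags about 5%, 9 held a mouse whose gap to its nearest neighbour was, as a share of the range of the group, above Dixon's critical value. For Atf4, home cage mouse 5 was highest at 228 CPM against 177 to 193 CPM in the others (0.666 of the range), and trained mouse 1 was lowest at 198 CPM against 245 to 274 CPM (0.663). For Homer1, home cage mouse 1 was highest at 337 CPM against 225 to 260 CPM (0.646). In Slc25a25, home cage mouse 5 was highest at 94.5 CPM against 78.1 to 83.5 CPM (0.649).

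Tsc22d3 was highest in trained mouse 4, at 127 CPM against 66.1 to 80.4 CPM (0.701). Sst was lowest in trained mouse 3, at 99.2 CPM against 133 to 158 CPM (0.625). Home cage mouse 3 was lowest in Htr3a, at 2.05 CPM against 3.15 to 3.98 CPM (0.648), and highest in Zbtb8b, at 8.34 CPM against 5.62 to 6.41 CPM (0.668). The summed endothelial markers were lowest in home cage mouse 5, at 1.38 CPM against 3.78 to 6.71 CPM (0.636).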

How the results depend on the processing

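The 371 DEGs (223 higher, 148 lower) became 768 (429 and 339) with the DESeq2 Wald test, 557 (254 lower) over protein-coding genes alone, 961 (504 and 457) with the 6 groups of the first experiment, 180 (142 and 38) with only the 12 mice compared, and 1601 (865 and 736) with limma-voom and sample quality weights. With 1 mouse left out they ran from 191 to 621, with 129 to 429 higher and 51 to 284 lower, as given above for each home cage mouse. Among trained mice the count was 586 without mouse 1, 236 without mouse 3, 202 without mouse 4, 227 without mouse 5 and 220 without mouse 6. Without both home cage mice 5 and 6, chosen after seeing the data, there were 1033 (718 and 315). Other alternatives stayed within 1.5 times the count.

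The replicate numbers did not pair the trained and home cage mice of this diet, and none matched best with its own number. A replicate block with all 12 groups gave 424 DEGs, one with only the 12 mice compared 141 (104 and 37), and one within task, added after seeing the data, 802 (504 and 298).

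Differences in change between diets gave 1 gene for HFS ad lib minus NC ad lib with the 6 groups and 1 with limma-voom, and 6 for HFS TRF minus HFS ad lib with limma-voom (limma-voom here was added later), and 0 with all others run. Genes that were not called and near 0 changed sign in 3 cases with 1 mouse left out. Notch1 ran from −0.089 (without trained mouse 2) to 0.263 and Thra from −0.0604 to 0.00646 (without home cage mouse 3), with 0.00478 without trained mouse 3. Of the 74 named genes called, 25 lost the call with only the 12 mice, 28 with the block on those mice, 13 without home cage mouse 2 or trained mouse 4, and 0 with DESeq2, limma-voom or DESeq2's size factors. The cause of these shifts was not tested. Each mouse had at least 49188472 counts, and the limits that depth and the number of mice set were not compared.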
